A study of Homo sapiens with 30 samples.

Results

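Gene expression of vehicle-treated ZR-75-30 breast cancer cells was compared with that of 4 other breast cancer cell lines. The series holds 30 arrays, on each of which BMP7-treated cells in one dye were hybridised together with vehicle-treated cells of the same line and time point in the other. Only the vehicle channel was used here, so the members are the 6 ZR-75-30 vehicle samples of 30 in all, and the comparison group is the 24 vehicle samples of HCC1954, MDA-MB-231, MDA-MB-361 and T-47D. Every line had 1 array at each of 30 min, 1, 3, 6, 12 and 24 h after vehicle was added to adherent cells, and the cells of 3 culture wells were pooled for each sample.

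The labels name no transgene or engineered deletion in any line, and none of the vehicle samples received BMP7. ZR-75-30 is an established line from a malignant effusion of a ductal carcinoma and carries the estrogen receptor and an amplified ERBB2 gene. HCC1954 is an estrogen receptor-negative line with amplified ERBB2, MDA-MB-231 is a line without estrogen receptor or ERBB2 amplification and with a mesenchymal shape, MDA-MB-361 has both the receptor and ERBB2 amplification, and T-47D has the estrogen and progesterone receptors. According to the study's methods, MDA-MB-231 and T-47D were grown at serum concentrations other than the recommended ones. For the remaining lines, ZR-75-30 included, the methods name recommended conditions without listing the media. Whether any lines shared a medium is therefore not known, and line and medium cannot be told apart in any comparison here. With the line as the unit, 1 line against 4 cannot give p below 0.2, and the 6 arrays of a line are 6 time points rather than repeat cultures, so the p-values below measure only the spread between arrays of a line.

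Breast epithelium is built of an inner luminal and an outer basal layer. Luminal cells make keratins 8, 18 and 19 and depend on the transcription factors GATA3 and FOXA1 and, in a part of the cells, on the estrogen receptor, whereas basal cells make keratins 5 and 14, p63 and laminins, and cancer cell lines keep much of either program or take on mesenchymal genes such as vimentin. Bone morphogenetic proteins such as BMP7 are secreted ligands that bind paired type I and type II receptors, which phosphorylate SMAD1, SMAD5 and SMAD9. These join SMAD4 and switch on target genes that include the ID family.

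A level in the text is the log2 vehicle signal of a probe minus the median of all probes of its array, so that 0 is the array's median probe, and levels were set side by side only for the same probe. A difference is on the log2 scale, where 1 is 2-fold, and is ZR-75-30 minus the other line or minus the mean of the other 4 line means. A gene was called higher or lower at a limma adjusted p under 0.05 and a difference of at least 1, with its probe well above background on at least 4 of 6 arrays of the higher line, or on at least 16 of the 24 other arrays where these were the higher group. A gene called in the same direction against each of the 4 lines is termed set apart.

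The 30 arrays came from 13 slides and were split into 2 scan batches by the month of scanning. Between 56.2 and 70.5% of spots were well above background in the vehicle channel (median 65.2%), and 0 to 4 spots per array were saturated. The MDA-MB-231 6 h array and the T-47D 3 h and 24 h arrays lay furthest from the other arrays of their lines, with r of 0.947, 0.960 and 0.970 to the mean of the other 5. The 6 ZR-75-30 vehicle arrays resembled each other. Each correlated with the mean of the other 5 at r = 0.979 (30 min), 0.991 (1 h), 0.991 (3 h), 0.985 (6 h), 0.992 (12 h) and 0.993 (24 h) over 29888 probes. The correlations with the means of the other lines were lower on every ZR-75-30 array, at 0.895 to 0.910 with MDA-MB-361, 0.884 to 0.903 with T-47D, 0.878 to 0.887 with HCC1954 and 0.831 to 0.840 with MDA-MB-231.

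The 30 min and 6 h arrays stood somewhat apart within ZR-75-30. They had 3783 and 2758 probes at least 1 (log2) off the median of the other 5 arrays, against 728 to 1081 for the other 4. These are the ZR-75-30 arrays of the second scan batch, and both were on a slide shared with the MDA-MB-231 30 min and 6 h arrays. Set against the median of the other 4 ZR-75-30 arrays, 4296 probes were off at 30 min and 3243 at 6 h, of which 1873 were off in the same direction on both. Time point, slide and scan batch cannot be told apart for this deviation.

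**Figure D1:**
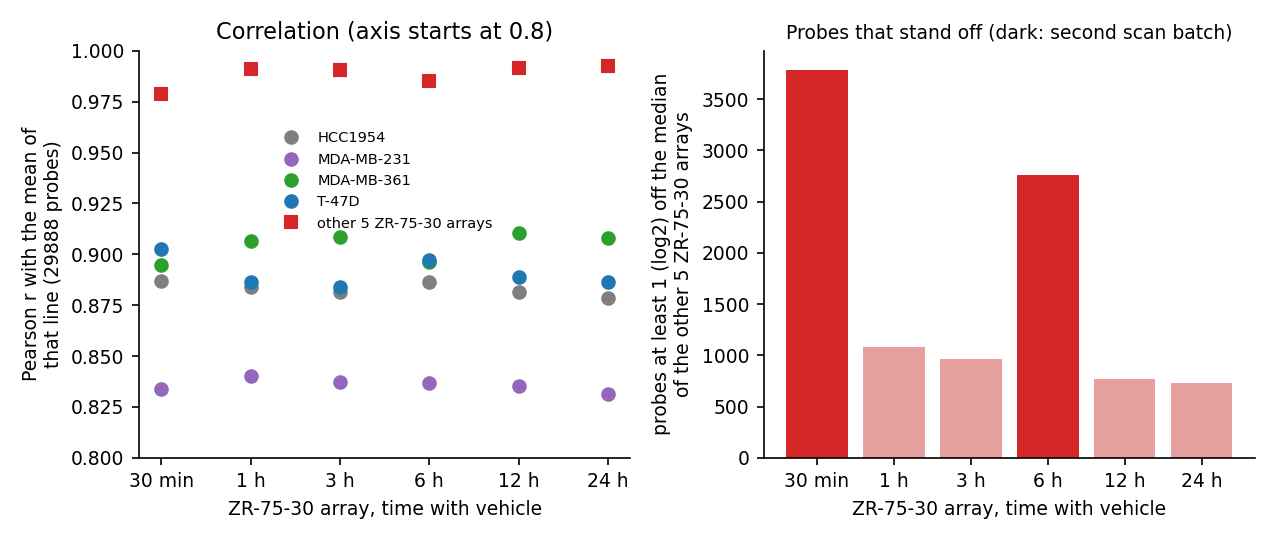
Agreement of the 6 ZR-75-30 vehicle arrays by time point. Left, Pearson r of each array with the mean of the other 5 ZR-75-30 arrays (red squares) and with the mean of each other line (circles) on an axis starting at 0.8, where r within the line stays at 0.979 or above and r with other lines at 0.910 or below; right, bars give the number of probes at least 1 (log2) off the median of the other 5 arrays, highest at 30 min (3783) and 6 h (2758), the arrays of the second scan batch.

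The 6 h array nevertheless kept most of the line's differences, though a smaller share than the ZR-75-30 arrays of the first scan batch. When genes set apart were called from the other 5 ZR-75-30 arrays, 344 were higher and 153 lower, with the probe of each gene chosen anew on the remaining arrays. At 6 h, 342 of the 344 and 142 of the 153 lay on the same side of all 4 line means, and 270 (78.5%) and 116 (75.8%) did so by at least 1. With each other array left out in the same way, 76.9 to 92.3% of the higher and 60.5 to 79.9% of the lower genes were shown by at least 1, lowest in both directions at 30 min. The 6 h array was second lowest in both. Lower genes on the same side numbered 157 of 158 at 1 h, 156 of 156 at 3 h, 156 of 159 at 12 h and 156 of 156 at 24 h. At 30 min they numbered 148 of 185. The BMP7-treated channel of the 6 h array correlated with the other 5 BMP7 channels at r = 0.972, with 5335 probes at least 1 off.

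Of 14586 genes tested, 1913 (13.1%) were higher and 1250 (8.57%) lower in ZR-75-30 than the mean of the other 4 lines. A gene well above background on fewer than 16 of the 24 other arrays could not be called lower. With no background criterion, 2034 genes were higher and 1788 lower, so the smaller number of lower genes depends largely on that criterion. The list counts below carry the same limit. The median difference over all genes was 0.01 and the median standard error (SE) 0.18. Against single lines, 2067 genes (14.2%) were higher and 2534 (17.4%) lower than in HCC1954, 2710 (18.6%) and 3087 (21.2%) than in MDA-MB-231, 2736 (18.8%) and 1963 (13.5%) than in MDA-MB-361, and 2704 (18.5%) and 2124 (14.6%) than in T-47D. The 4 contrasts share the 6 ZR-75-30 arrays. Centring on each array's 75th percentile moved the median of all genes by more than 0.1 against HCC1954 (from -0.05 to 0.07), MDA-MB-361 (from 0.12 to -0.00) and T-47D (from 0.06 to -0.08), so counts against a single line carry that uncertainty.

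The set apart genes numbered 338 higher (2.32%) and 154 lower (1.06%). Hence 1575 of the genes called higher and 1096 of those called lower against the mean were not called against at least 1 single line. The 6 ZR-75-30 values all lay above the 24 others for 440 genes (3.02%) and all below for 246 (1.69%), including 271 of the 338 and 124 of the 154. With each other line put in the place of ZR-75-30, the set apart counts were 619 higher and 325 lower for HCC1954, 1015 and 837 for MDA-MB-231, 671 and 661 for MDA-MB-361, and 471 and 499 for T-47D. ZR-75-30 had the fewest genes of its own in both directions among the 5 lines. In such cultures fewer cells with a transcript and less transcript per cell cannot be told apart.

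The genes furthest above every other line were chosen by the size of the difference from the nearest line, and 13 are described. FGF4, a fibroblast growth factor of the early embryo (probe at chr11:69297310-69297369, hg18), lay at 6.27, 5.76, 5.91, 7.09, 5.95 and 6.08 in the 6 ZR-75-30 arrays from 30 min to 24 h, against a lowest, median and highest of -4.63, -4.19 and -2.71 in the 24 others. All 6 values lay above the 24 others, of which none was well above background. A probe that was not well above background on any array of the dimmer group has only a bound there, taken as the mean of the brighter group over the lowest well-measured signal of each array of the dimmer one or the probe's own signal if higher. FGF4 was thus at least 327-fold higher in ZR-75-30 (measured difference 10.20 ± 0.22 SE, limma adjusted p = 6.3e-25).

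ZIC1, a zinc finger transcription factor of the developing nervous system (chr3:148614686-148614745), lay at 3.55, 3.77, 3.74, 2.74, 3.97 and 3.68 in ZR-75-30 and at -4.88, -4.19 and -2.87 in the others, and was at least 53.9-fold higher (measured difference 7.72 ± 0.21, adjusted p = 6.9e-23). The 6 h value was the lowest of the 6 but still above all others. LXN, the carboxypeptidase inhibitor latexin (chr3:159867172-159867498), lay at 9.35, 8.75, 8.56, 8.93, 8.81 and 8.76 against -4.35, 1.29 and 3.04, with a difference of 8.46 ± 0.22 (adjusted p = 3.6e-23), or 352-fold. The lowest LXN value in the other lines was as low as FGF4 values there that were not well above background, so this fold is approximate. BCAS3, a gene of the 17q23 region that is amplified in part of breast cancers (chr17:56824483-56824542), lay at 8.12, 7.53, 7.31, 8.43, 7.63 and 7.65 against -0.46, 0.97 and 2.30 and was 112-fold higher (6.81 ± 0.16, adjusted p = 3.4e-24). Its 3 probes all gave higher values in ZR-75-30 but ranged from 1.72 to 6.81 log2 units.

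For 4 further genes no array of the other lines was well above background. These were NUP210L, a nucleoporin-like gene (at least 26.0-fold), DDX43, an RNA helicase known as a cancer-testis antigen (24.1), TAFA5, a secreted chemokine-like protein of the brain (19.4), and RGS22, a regulator of G-protein signalling (18.0). The measured differences were 6.89, 6.49, 6.50 and 6.17. The remaining ones were ACTA1, skeletal muscle actin (7.89), HPDL, a dioxygenase-like mitochondrial protein (7.02), H1-9P, listed on the array as the spermatid linker histone HILS1 (6.69), SYT10, a synaptotagmin (6.19), and ADCY5, an adenylyl cyclase (5.96). Only 3, 2 and 4 of the 24 other arrays were well above background for the last 3. ACTA1 stood apart at 24 h, where it was at 5.05 against 6.54 to 7.34 on the other ZR-75-30 arrays, and still lay above every other line. Actin genes are closely related in sequence, and the probe may share signal with other actins. Over all set apart genes, 24 of the 338 higher ones had no array of the other lines above background.

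The genes furthest below every other line were chosen in the same way, and 14 are described. NLRP2, a cytosolic sensor of the NLR family (chr19:60197486-60197545), lay at -4.41, -3.78, -3.62, -4.43, -3.40 and -3.89 in ZR-75-30, where no array was well above background, against 1.30, 3.29 and 4.93 in the others. It was at least 41.1-fold lower (measured difference -7.21 ± 0.18, limma adjusted p = 1.8e-23). ARHGAP23, a GTPase-activating protein, lay at -2.42, -2.18 and -1.83 (lowest, median, highest) against 0.62, 4.82 and 9.77 (measured difference -6.80 ± 0.29, adjusted p = 3.1e-18). Only 2 of the 6 ZR-75-30 arrays were well above background for it, so the size of the difference is uncertain. Neither gene overlapped between the groups. GNAI1, an inhibitory G-protein subunit, was at least 11.5-fold lower (measured -5.13), TRPM2, a calcium-permeable channel, at least 15.3-fold (-5.99), GSDME, a gasdermin that executes pyroptosis, at least 9.09-fold (-5.48), and TUBB2B, a neuronal tubulin, at least 8.54-fold (-4.91).

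Of these lower genes, CDCP1, DCBLD2 and CD82 encode cell surface proteins. CDCP1, a transmembrane substrate of SRC family kinases, lay at -0.11, 0.21 and 0.66 against 3.56, 4.38 and 6.34 (-4.56 ± 0.16, adjusted p = 3.9e-20), and all 3 of its probes were lower. DCBLD2, a neuropilin-like receptor, lay at 0.49, 1.34 and 1.63 against 5.03, 5.54 and 9.77 (-5.40 ± 0.25, adjusted p = 2.4e-17), again with 3 lower probes. CD82, a tetraspanin known as a metastasis suppressor, lay at 1.45, 1.97 and 2.33 against 4.22, 4.65 and 6.19 and was 8.33-fold lower (-3.06 ± 0.16, adjusted p = 8.2e-16). None of the 3 overlapped between ZR-75-30 and the other lines. Of the others, TUB, the tubby homologue, differed by -4.27 (at least 5.22-fold), MINDY4, a deubiquitinase family member, by -4.09 (at least 7.54-fold), SPOCD1 by -4.21, CRYBG3 by -2.81 and PLAAT1, a phospholipid acyltransferase, by -4.89. PLAAT1 was the only one of the 14 lower genes described with overlapping groups, through its 12 h value of -0.91 against -4.79 to -3.90 on the other 5 arrays, and 1 of the 6 was well above background.

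**Figure D2:**
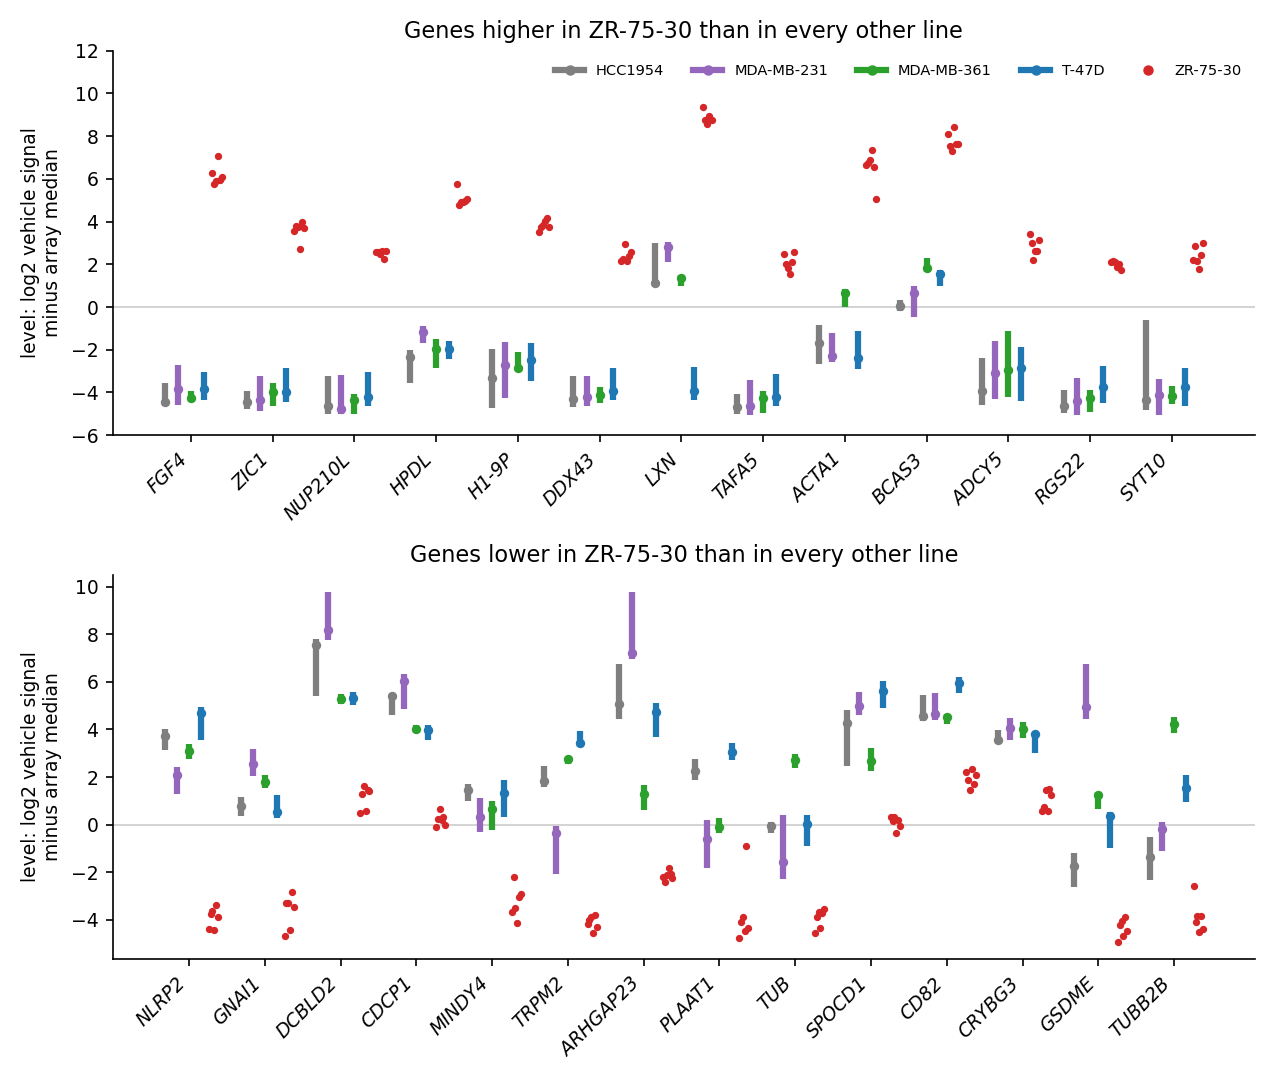
Levels (log2 vehicle signal minus the array median) of the 13 described genes higher in ZR-75-30 than in every other line (top) and of the 14 lower ones (bottom). Red points are the 6 ZR-75-30 arrays, and for each other line a bar spans the lowest to highest of 6 arrays with a dot at the median; the red points lie beyond the bars of all 4 lines for every gene but PLAAT1, most clearly for FGF4 and NLRP2, which differ by 10.20 and -7.21 from the mean of the other lines.

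The defining markers of a luminal, estrogen receptor-positive line with high ERBB2 were present in ZR-75-30, except for the progesterone receptor. Of 29 luminal and estrogen receptor program genes tested, 22 were higher and 0 lower than the mean of the other lines, with a median difference of 1.75 against 0.01 over all genes. The shares over all genes, 13.1% higher and 8.57% lower, are the background for this and the following lists where compared with that mean. Against a single line the background is 14.2% higher and 17.4% lower for HCC1954 and 18.6% and 21.2% for MDA-MB-231. It is 18.8% and 13.5% for MDA-MB-361 and 18.5% and 14.6% for T-47D. The luminal median depended on the line compared. It was 2.12 from HCC1954 and 4.68 from MDA-MB-231 but 0.23 from MDA-MB-361 and -0.21 from T-47D. Against T-47D, 5 of the 29 were higher, near the share over all genes, and 10 lower. Set apart were 3 members, TFF1, RET and SLC39A6.

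TFF1, trefoil factor 1 and a classical estrogen target, lay at 9.55, 10.71 and 11.35 (lowest, median, highest) in ZR-75-30 and at 0.54, 6.83 and 9.18 in the others, with a difference of 4.81 ± 0.33 (limma adjusted p = 2.1e-13). Its mean level was 10.61 ± 0.81 (SD, n = 6) against 8.97 ± 0.22 in MDA-MB-361, 6.95 ± 0.51 in T-47D, 6.01 ± 1.32 in MDA-MB-231 and 1.28 ± 0.45 in HCC1954, and no array of another line reached the ZR-75-30 range. RET, a receptor tyrosine kinase and estrogen target in breast cells, lay at 3.92, 4.58 and 5.18 against -4.67, -2.16 and 3.52 (6.04 ± 0.22, adjusted p = 5.6e-20). MDA-MB-361 came nearest at 3.19 ± 0.39, and RET was not well above background on any array of HCC1954 or MDA-MB-231.

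ESR1, the estrogen receptor itself (chr6:152465601-152465660), had another order of lines than its target TFF1. It lay at 1.88, 2.81 and 3.05 in ZR-75-30, where the mean was 2.60 ± 0.46, below MDA-MB-361 (4.26 ± 0.36, difference -1.67) and T-47D (3.72 ± 0.60, difference -1.12), and above HCC1954 (-0.56 ± 0.21) and MDA-MB-231, where it was not well above background. ESR1 was called lower than in the former 2 lines and higher than in the latter 2 (limma adjusted p from 2.9e-20 to 4.4e-04 over the 4 contrasts). Against the mean of all 4 it was higher by 1.82 ± 0.20 (adjusted p = 7.8e-09), but its 3 probes ranged from -0.54 to 2.88, without MDA-MB-231 the difference was 0.12, and with normexp background correction and quantile normalization 0.59, neither of them called. PGR, the progesterone receptor and another estrogen target, was not well above background on any ZR-75-30 array (-4.41, -3.94 and -3.58), whereas T-47D had 4.56 ± 0.53 (at least 99.5-fold more, measured difference -8.52, adjusted p = 8.9e-19). Against the mean of the other lines PGR was not called, since it was well above background on 11 of the 24 other arrays and 16 were required.

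Among the luminal transcription factors, GATA3 lay at 6.10, 6.55 and 7.02 against 0.19, 3.61 and 6.47 and was higher than the mean by 3.05 ± 0.16 (adjusted p = 2.8e-16), called against every line but T-47D (6.15 ± 0.38 against 6.54 ± 0.37 in ZR-75-30). FOXA1, the pioneer factor of estrogen receptor binding, differed by 3.12 ± 0.27 (adjusted p = 4.4e-11), which became 0.69 without MDA-MB-231. Neither factor was called against T-47D. Other estrogen-responsive members were CA12, a membrane carbonic anhydrase (4.27), and GREB1, an estrogen receptor cofactor (4.27), each called against HCC1954 and MDA-MB-231 and neither against T-47D. ERBB3, the kinase-impaired partner of ERBB2, was higher by 2.44 ± 0.18 (adjusted p = 1.5e-12), with 6 ZR-75-30 values of 3.78, 4.07 and 4.44 that did not overlap the others at -3.24, 2.49 and 3.76. Its 3 probes ranged from 0.18 to 2.44. KRT19 was higher by 2.01 ± 0.23 (adjusted p = 1.5e-08), mainly through HCC1954, without which the difference was 0.61. KRT18 was at 10.24, 10.64 and 10.78 against 8.49, 10.07 and 10.97, a difference of 0.69 that was not called.

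Basal and mesenchymal genes lay on the other side. Of 27 basal epithelial genes tested, 11 were lower and 1 higher (median -1.40). The difference was largest from HCC1954, against which 25 were lower (median -4.17), followed by MDA-MB-231 with 14 lower (median -1.50). The medians were -0.04 from MDA-MB-361 and 0.23 from T-47D. EGFR, the epidermal growth factor receptor (chr7:55242335-55242394), lay at -2.25, -1.66 and -1.14 in ZR-75-30 and at -0.17, 2.74 and 4.91 in the others. It was lower by 4.45 ± 0.19 (limma adjusted p = 2.3e-18) with no overlap, measured well above background on 4 of the 6 ZR-75-30 arrays, and was set apart also from the luminal lines MDA-MB-361 (1.62 ± 0.13) and T-47D (0.86 ± 0.63). CD44, a hyaluronan receptor, showed the same pattern at 1.61, 2.22 and 2.60 against 4.21, 6.35 and 10.58 (-4.47 ± 0.21, adjusted p = 3.7e-17), with MDA-MB-361 and T-47D at 4.49 ± 0.16 and 4.50 ± 0.23. LAMA3, a laminin chain, was the other set apart member.

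TP63, the master regulator of basal cells, was lower by 3.01 ± 0.17 (adjusted p = 2.2e-15), but overlapped with MDA-MB-231, and CAV2, caveolin 2, by 2.86 ± 0.23 (adjusted p = 6.9e-12), with T-47D below ZR-75-30. KRT5 was near the floor in every line but HCC1954 (6.29 ± 0.16), so the difference from the mean of -2.45 was not called.

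Of 25 mesenchymal genes tested, 8 were lower and 1 higher (median -1.38). Against MDA-MB-231 20 were lower (median -3.79) and against HCC1954 13 (median -1.03), whereas medians from MDA-MB-361 and T-47D were 0.47 and -0.00. None was set apart. VIM, vimentin, lay at -0.06, 0.46 and 0.73 in ZR-75-30 and at -3.35, 4.20 and 11.45 in the others (-3.94 ± 0.28, adjusted p = 6.7e-13), below MDA-MB-231 (10.25 ± 0.71) and HCC1954 (7.78 ± 0.73) and above MDA-MB-361 (-1.72 ± 0.88). COL6A1 (collagen VI, -3.48), SNAI2 (the repressor SLUG, -3.19) and LOX (lysyl oxidase, -2.97, at least 2.23-fold as no ZR-75-30 array was well above background) were lower as well. TGFBI, a matrix protein induced by TGF-beta, was higher at 5.91, 6.26 and 6.86 against -1.94, 4.54 and 8.14 (2.28 ± 0.22, adjusted p = 3.6e-10), with HCC1954 higher still, and without T-47D it differed by 0.69.

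Epithelial adhesion genes were the counterpart, with 16 of 32 higher and 1 lower (median 0.95). Again the difference came with MDA-MB-231, from which the median was 3.58 with 24 genes higher, against -0.17 from HCC1954, 0.10 from MDA-MB-361 and 0.47 from T-47D. CDH1, E-cadherin, lay at 8.70, 9.18 and 9.35 against 0.99, 8.35 and 10.10 (2.15 ± 0.18, adjusted p = 2.7e-11), and at 1.53 ± 0.54 in MDA-MB-231, without which the difference was 0.34. OVOL1, a repressor of mesenchymal genes (3.39), the claudins CLDN3 (2.88) and CLDN7 (2.31) and the vesicle GTPase RAB25 (2.31) were higher too. EVPL, envoplakin, was lower by 1.07 ± 0.26 (adjusted p = 9.9e-04), with all 6 ZR-75-30 values (4.10, 4.20 and 4.34) below the 24 others (4.39, 5.37 and 7.48).

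**Figure D3:**
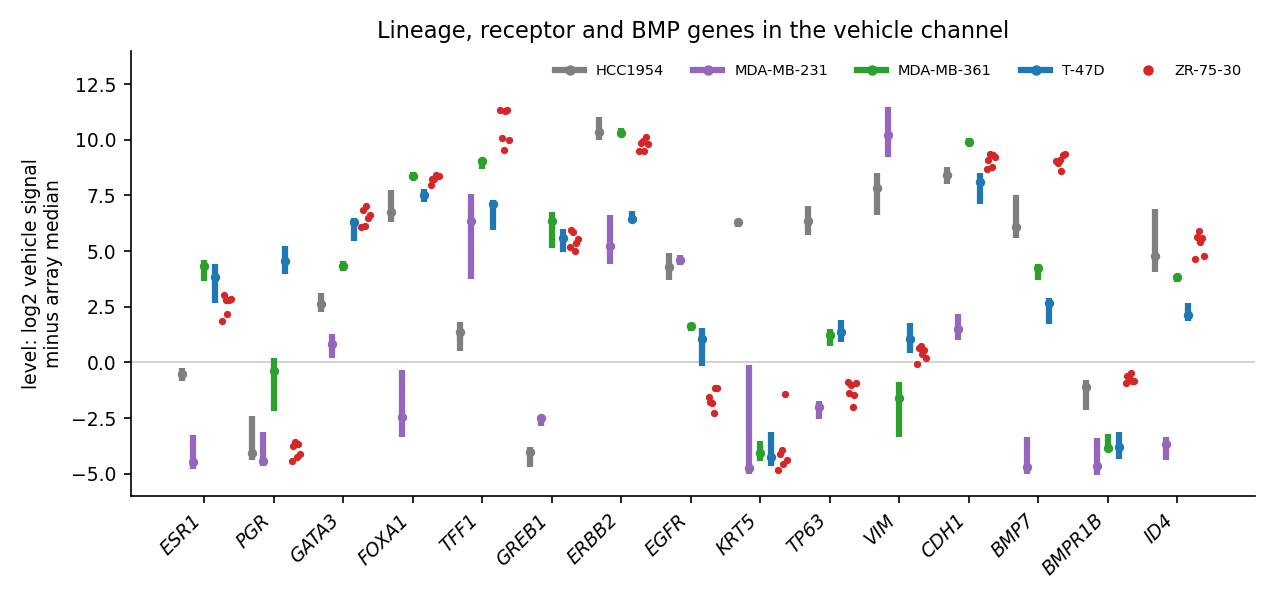
Levels (log2 vehicle signal minus the array median) of 15 lineage, receptor and BMP genes. Red points are the 6 ZR-75-30 arrays and bars span the 6 arrays of each other line with the median as a dot. ZR-75-30 lies with MDA-MB-361 and T-47D for FOXA1 and with HCC1954 and MDA-MB-361 for ERBB2. For VIM it lies below HCC1954 and MDA-MB-231 but above MDA-MB-361. It lies below both luminal lines for ESR1 (mean 2.60 against 4.26 and 3.72), and above all lines for TFF1 and BMP7.

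BMP7, the ligand whose added protein the study examined, was itself among the genes set apart in ZR-75-30 without added BMP7 (chr20:55178962-55179021). Citing earlier work, the study describes all 5 lines, ZR-75-30 among them, as having low BMP7 expression of their own. That description does not come from these arrays, and the 2 measures were not compared here. The BMP7 probe lay at 9.05, 8.94, 9.08, 8.59, 9.34 and 9.37 in the 6 arrays from 30 min to 24 h, against -5.01, 3.30 and 7.50 in the 24 others. All 6 values were above all 24, with a difference of 6.96 ± 0.22 from the mean of the other lines (limma adjusted p = 2.1e-21). HCC1954 came nearest at 6.19 ± 0.69 (difference 2.87 ± 0.28, adjusted p = 3.0e-10, 7.32-fold), followed by MDA-MB-361 at 4.20 ± 0.27 and T-47D at 2.49 ± 0.46. No MDA-MB-231 array was well above background, so the difference there is at least 2563-fold. The 3 BMP7 probes gave 4.97 to 6.96. The vehicle signal of every array was dye-normalized together with the channel of the BMP7-treated cells, so it is not wholly independent of that treatment.

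Of 12 BMP and GDF ligands tested, 2 were higher and 1 lower (median 0.16). Besides BMP7 the higher one was GDF15, a stress-induced ligand, at 8.82, 9.29 and 10.06 against 4.60, 6.34 and 8.08 (3.08 ± 0.28, adjusted p = 9.5e-11), also without overlap and set apart. BMP8A was at 7.13, 7.89 and 9.91 against 8.17, 9.24 and 11.14 and called lower (-1.12 ± 0.29, adjusted p = 1.5e-03). Its other probe gave a difference near 0, and the difference was smaller than 1 without the 3 h (-0.92), 12 h (-0.94) or 24 h (-0.99) array.

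Among 10 receptors tested, 3 were higher and 0 lower (median 0.31). BMPR1B, a type I receptor, lay at -0.93, -0.73 and -0.49 in ZR-75-30 and at -5.04, -3.78 and -0.78 in the others (2.60 ± 0.19, adjusted p = 1.3e-12), a difference that was 0.68 and not called with normexp and quantile normalization. It was higher than in MDA-MB-231, MDA-MB-361 and T-47D, where no array was well above background (at least 2.91-, 2.71- and 2.17-fold), and differed by 0.55 from HCC1954, which was not called. ENG, the co-receptor endoglin, was higher by 1.55 ± 0.16 (adjusted p = 1.5e-09) and ACVR1, the type I receptor ALK2, by 1.02 ± 0.19 (adjusted p = 3.5e-05). The difference of ACVR1 was under 1 when the 1 h (0.98), 3 h (0.97) or 24 h (0.99) array was left out. BMPR1A, another type I receptor, was not called, at 1.80, 2.62 and 2.84 against 1.79, 2.86 and 3.46 (difference -0.29), nor was BMPR2, the type II receptor, at 1.50, 1.93 and 2.11 against 0.37, 1.51 and 2.28 (0.44).

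Of 20 SMADs and BMP target genes, 10 were higher and 0 lower (median 1.00), with median differences of 1.63 from MDA-MB-231, 0.67 from T-47D, 0.26 from MDA-MB-361 and -0.02 from HCC1954. The pathway transducers SMAD1 (difference 0.58) and SMAD4 (0.09) were not called. ID4 lay at 4.65, 5.50 and 5.90 against -4.39, 3.14 and 6.91 (3.51 ± 0.25, adjusted p = 3.9e-13), ID2 differed by 1.92 ± 0.27 (adjusted p = 4.2e-07) and ID1 by 1.05 ± 0.24 (adjusted p = 5.1e-04). ID1 was not called with quantile normalization (0.92), scan batch as a term (0.97) or slide as a random block (0.87). Without MDA-MB-231, ID2 and ID1 differed by 0.75 and 0.45, and MDA-MB-361 had more ID2 than ZR-75-30. BAMBI, a pseudoreceptor that is both target and inhibitor of the pathway, was higher by 2.20 ± 0.19 (adjusted p = 4.0e-11). Only ATOH8, a helix-loop-helix factor, was set apart within this list, at 0.99, 1.24 and 1.43 against -3.81, -1.74 and 0.92 (2.85 ± 0.46, adjusted p = 5.1e-06).

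Of 13 antagonists of the pathway tested, 2 were higher and 2 lower (15.4% each, median -0.68), near the 13.1% and 8.57% over all genes. FSTL3 was higher by 1.93 ± 0.26 (adjusted p = 2.9e-07). FST, follistatin, lay at 1.76, 2.20 and 2.43 and was called higher than the mean (1.51 ± 0.27, adjusted p = 1.8e-05), yet the other lines lay on both sides, at 5.05 ± 0.78 and 5.48 ± 0.53 in HCC1954 and MDA-MB-231 and below background in MDA-MB-361 and T-47D. Without T-47D its difference was 0.09 and without MDA-MB-361 -0.17. NBL1, also called DAN, was 4.01-fold lower (adjusted p = 2.8e-14) and TWSG1, which modulates ligand binding to chordin, by 1.06 ± 0.14 (adjusted p = 1.3e-07), the latter no longer called without the 6 h array.

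Mammary secretory genes were higher in 9 of 19 cases and lower in 1 (median 0.84, or -0.03 with normexp background correction and quantile normalization). SCGB2A2, mammaglobin A, lay at 4.28, 4.79 and 5.59 in ZR-75-30 and at -4.97, -3.65 and 6.33 in the others (6.43 ± 0.25, limma adjusted p = 2.6e-19). MDA-MB-361 had more (6.14 ± 0.16), and the remaining 18 arrays were not well above background. The related secretoglobins SCGB1D1 (4.48) and SCGB1D2 (4.24) had the same order of lines, and CEACAM6, a membrane glycoprotein of glandular epithelium, differed by 3.95. ELF5, the transcription factor of milk-producing alveolar cells, was called lower (-1.11 ± 0.35, adjusted p = 9.9e-03), but not without the 30 min (-0.89) or 3 h (-0.98) array.

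Antigen presentation genes were lower in 11 of 24 cases and higher in 1 (median -1.13), with medians of -1.23 from HCC1954, -1.86 from MDA-MB-231 and -0.93 from T-47D, but 0.08 from MDA-MB-361. HLA-B, a class I heavy chain, lay at 6.05, 6.15 and 6.89 against 6.85, 7.78 and 8.83 (-1.45 ± 0.17, adjusted p = 1.9e-08), and class I genes are so alike that probes can share signal. PSMB8, an immunoproteasome subunit, was lower by 1.45 ± 0.16 (adjusted p = 6.1e-09). The class II genes HLA-DMB and HLA-DPB1 were not well above background on any ZR-75-30 array and were at least 1.59-fold and 1.70-fold lower (measured differences -2.14 and -1.42). ERAP1, which trims peptides for class I, differed by 1.04, and by less than 1 without the 30 min, 3 h, 6 h (0.90) or 24 h (0.97) array.

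Of 33 interferon-stimulated genes tested, 9 (27.3%) were lower and 2 (6.06%) higher (median -0.15), beside 8.57% and 13.1% over all genes. ISG15, a ubiquitin-like modifier, was higher by 2.07 ± 0.19 (adjusted p = 1.7e-10) although MDA-MB-231 had 8.26 ± 0.48 against 7.28 ± 0.37 in ZR-75-30. BST2, tetherin, was called higher than the mean (1.56), through MDA-MB-361 (-1.07 ± 0.29), without which its difference was -0.32. IFI44 (-2.79, at least 5.23-fold), SAMD9 (-2.24), IFIT1 (-2.10) and MX2 (-2.02), all antiviral effectors, were lower. Compared with MDA-MB-361 alone, 17 of the 33 were higher in ZR-75-30 (median 1.24), beside 18.8% over all genes.

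HOX genes, which encode positional identity along the body axis, were higher in 10 of 24 cases and lower in 2 (median 0.26). HOXA4 lay at 1.34, 2.32 and 2.65 against -4.33, -2.13 and -1.18 (4.60 ± 0.19, adjusted p = 1.5e-18) and HOXA7 at -0.85, 0.19 and 0.64 against -4.77, -3.08 and -1.41 (3.18 ± 0.22, adjusted p = 3.1e-13). Both were set apart and did not overlap, though only 8 and 5 of the 24 other arrays were well above background. HOXC13 (3.34) and HOXB7 (3.04) were higher as well, though the other HOXB7 probe gave -0.15, and HOXB3 (-2.42) and HOXA13 (-1.20) were lower, the last not without the 6 h array.

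Few proliferation genes were called, with 1 of 32 higher and 2 lower (median -0.13). RRM2, a ribonucleotide reductase subunit, was higher by 1.25 ± 0.19 (adjusted p = 1.9e-06) and CENPF, a kinetochore protein, lower by 1.34 ± 0.24 (adjusted p = 2.7e-05). UBE2C, a mitotic ubiquitin-conjugating enzyme, was lower by 1.04 ± 0.21 (adjusted p = 1.2e-04), with -0.99 without the 12 h array. By line, 14 of the 32 were higher than in MDA-MB-361 (median 0.78) and 12 lower than in MDA-MB-231 (median -0.79). Over all genes these shares were 18.8% and 21.2%.

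Cancer-testis genes, normally silent outside the germ line, were tested in 12 cases, of which 2 were higher and 4 lower (median -1.04). PAGE2 was higher by 3.17 ± 0.21 (adjusted p = 9.8e-14) and PAGE5 by 2.45 ± 0.20 (adjusted p = 8.6e-12). MAGEA12 (-4.02, well above background on 3 of 6 ZR-75-30 arrays) and MAGEA6 (-3.52, at least 5.65-fold) were set apart as lower, and MAGEA1 (-2.95, at least 3.55-fold) and MAGEC1 (-1.15) were lower than the mean. The MAGEA genes are near-identical copies, so a probe may read more than 1 of them.

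Of 24 markers of leukocytes, endothelium and fibroblasts, 14 were bright enough to test, with 2 higher and 1 lower (median -0.38). These shares, 14.3% and 7.14%, were near the 13.1% and 8.57% over all genes. CSF1R, a myeloid receptor that carcinoma cells can also carry, differed by 3.29, ACTA2, smooth muscle actin, by 2.97, and COL1A1, collagen I, by -1.10, the last not called without the 1 h array. Their part in the other results was not tested.

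**Figure D4:**
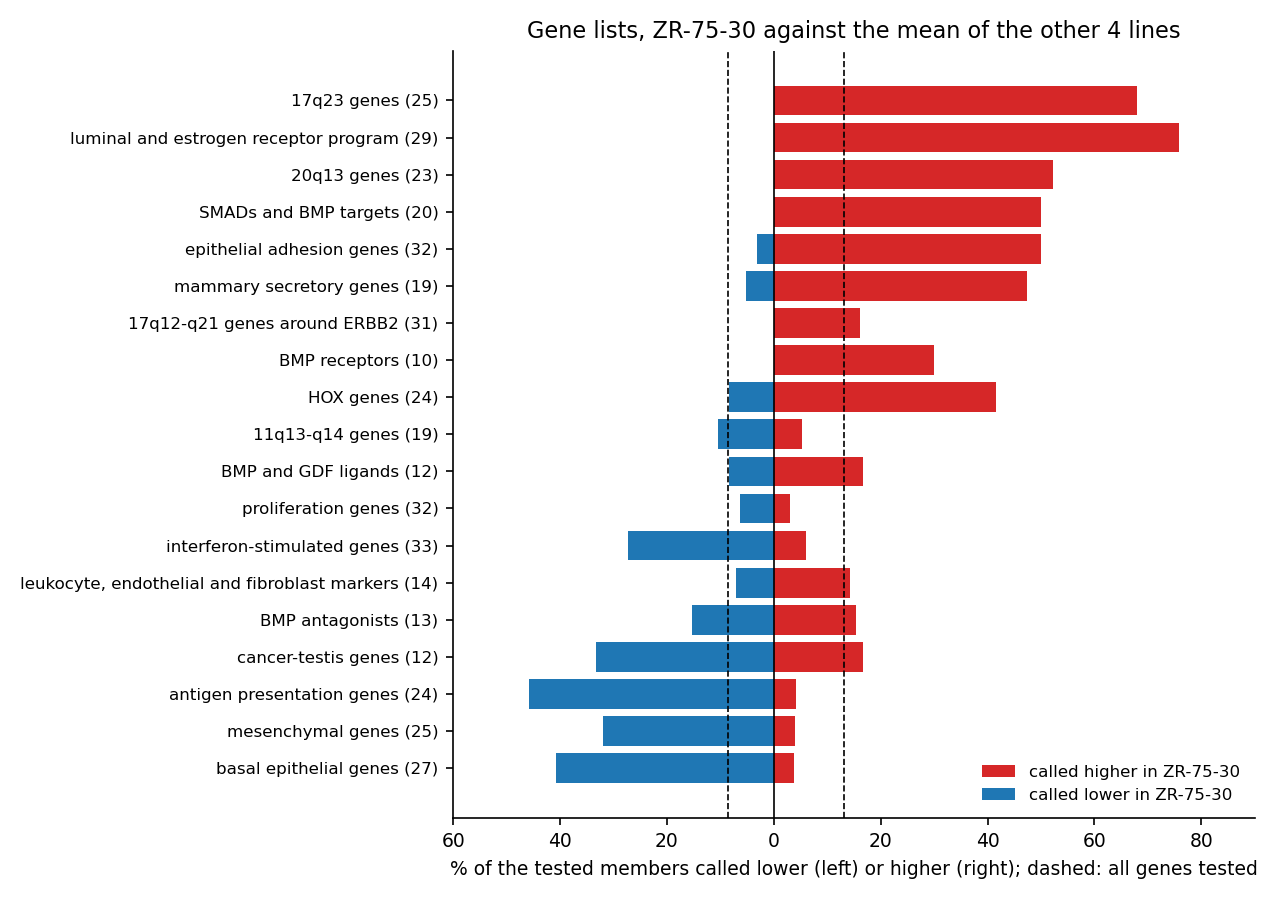
Share of the tested members of each gene list (number tested in brackets) called higher (red, right) or lower (blue, left) in ZR-75-30 than the mean of the other 4 lines, ordered by median difference. Dashed lines mark the shares over all 14586 genes, 13.1% higher and 8.57% lower; luminal (22 of 29) and 17q23 genes (17 of 25) extend furthest to the right, and antigen presentation (11 of 24) and basal genes (11 of 27) furthest to the left.

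Genes of chromosome regions that are often amplified in breast cancer were compared next. Copy number was not measured. Of 31 genes of 17q12-q21 around ERBB2, 5 (16.1%) were higher and 0 lower (median 0.43), the former near the 13.1% over all genes. ERBB2, the receptor tyrosine kinase HER2 (chr17:35138355-35138414), lay at 9.49, 9.82 and 10.11 in ZR-75-30 and at 4.41, 8.40 and 11.04 in the others, with line means of 9.79 ± 0.24 in ZR-75-30, 10.46 ± 0.39 in HCC1954 and 10.37 ± 0.15 in MDA-MB-361 and of 6.45 ± 0.18 in T-47D and 5.28 ± 0.76 in MDA-MB-231. ZR-75-30 was higher than the latter 2 lines and differed by -0.67 and -0.58 from the former, below the call. Against the mean the difference was 1.64 ± 0.19 (limma adjusted p = 1.0e-08), or 0.69 without MDA-MB-231. PGAP3 (2.98), a neighbour that remodels GPI anchors, PNMT (1.80), an enzyme of adrenaline synthesis, and GRB7 (1.31), an adaptor of ERBB2, were higher than the mean too, and GRB7 was lower than in HCC1954 (7.86 ± 0.32 against 4.49 ± 0.36). Without MDA-MB-231 the GRB7 difference was -0.00674.

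The 17q23 list held the largest share of set apart genes, 11 of 25 tested, with 17 higher and 0 lower and a median of 2.01. The medians were 2.35 from HCC1954, 2.16 from MDA-MB-231, 0.98 from MDA-MB-361 and 2.85 from T-47D. Beside BCAS3, TUBD1, delta-tubulin, lay at 4.97, 5.09 and 5.41 against 0.57, 1.64 and 2.81 (3.47 ± 0.16, adjusted p = 3.5e-17). CA4, a carbonic anhydrase, was at least 5.73-fold higher (measured 3.95), as no other array was well above background. TBX2, a T-box repressor of senescence genes, lay at 5.98, 6.23 and 6.60 against -4.52, 1.01 and 5.42 (5.42 ± 0.15, adjusted p = 1.0e-22). It did not overlap but was 0.98 above MDA-MB-361, just under the call. The ribosomal S6 kinase gene RPS6KB1 differed by 3.36 and the phosphatase gene PPM1D, which acts on p53, by 3.15, both set apart.

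Of 23 genes of 20q13, 12 were higher and 0 lower (median 1.02), and 6 were set apart. SULF2, a heparan sulfate sulfatase, lay at 8.77, 9.23 and 9.40 against -4.87, 2.81 and 7.16 (6.98 ± 0.35, adjusted p = 1.6e-16), with HCC1954 nearest at 7.04 ± 0.09. PREX1, a Rac exchange factor, lay at 7.69, 8.40 and 8.63 against -2.19, 3.35 and 6.58 (5.28 ± 0.20, adjusted p = 1.0e-19) and BCAS1, a gene named for its amplification in breast cancer, at 4.82, 5.11 and 5.51 against -4.59, -0.05 and 2.78 (5.97 ± 0.34, adjusted p = 2.8e-15). None of the 3 overlapped, and BMP7 is a further member. In 11q13-q14, 1 of 19 genes was higher and 2 lower (median 0.17, or -0.16 with normexp and quantile normalization). The higher one was FGF4, whereas of its neighbours CCND1, cyclin D1, differed by 0.45 and FGF3 by -0.53, neither called. LTO1 (-1.33) and PAK1 (-1.18), a kinase under Rac control, were lower.

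Called genes were also counted along the chromosomes, since position had no part in calling them. In 14083 windows of 20 consecutive tested genes, on average 2.62 were higher and 1.72 lower, and 10 or more were higher in 190 windows (1.35%) and lower in 42 (0.298%). The windows overlap, and neighbouring genes are not independent. Taking for each region the window with most called genes gave 10 regions of higher and 2 of lower genes. Positions are those of the array annotation on hg18.

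On 17q the window from TEX14 to APPBP2 (chr17:53989109-55875465) had 17 of 20 genes higher (median 1.86), 8 of them set apart, including RAD51C (2.44), a recombination factor, and TRIM37 (3.30), a ubiquitin ligase. MDA-MB-361 itself had 10 of these genes called higher when put in the place of ZR-75-30. On chromosome 1 a window from AMY1C to ATXN7L2 (chr1:104008544-109836775) had 17 higher (median 1.32), led by HENMT1 (5.06), a methyltransferase of small RNAs, EEIG2 (3.15) and PRMT6 (2.93), an arginine methyltransferase. There 4 were set apart, and 7 were called against HCC1954. A window nearby from NRAS to TENT5C (chr1:115051456-117968486) had 13 higher, 9 of them set apart (median 1.76), among them the GTPase gene NRAS (3.13) and TENT5C (2.81), a poly(A) polymerase. VTCN1 (3.14), the immune checkpoint ligand B7-H4, was higher than the mean but not set apart.

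On chromosome 15 the window from GALK2 to MYO5C (chr15:47407593-50271995) had 13 higher and 8 set apart (median 1.38), with GLDN (4.70), gliomedin, and SLC27A2 (3.28), a fatty acid transporter. HCC1954 in the place of ZR-75-30 had 6 of these genes higher, and 9 were called against it. The chromosome 20 window from KCNG1 to RBM38 (chr20:49053670-55417087) had 12 higher (median 1.12), 4 set apart, with SALL4 (4.54), a stem cell transcription factor, beside BCAS1 and BMP7. HCC1954 had 7 of these genes called higher when put in the place of ZR-75-30, and against HCC1954 only 5 were called. A chromosome 14 window from SERPINA1 to BCL11B (chr14:93914544-98705833) had 10 higher and 1 lower, led by AK7 (6.42), an adenylate kinase, BDKRB2 (4.98), a bradykinin receptor, and SERPINA3 (4.19), antichymotrypsin. In that window 3 were set apart, and 6 were called against T-47D (median 0.28). MDA-MB-361 and T-47D in the place of ZR-75-30 had 4 each of its genes higher.

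A window on 8q from ZHX2 to NSMCE2 had 19 of 20 higher (median 1.72), but 3 set apart. HCC1954 in the place of ZR-75-30 had 10 of them higher as well, and 4 were called against it. The count was the highest of any window here, but with a minimum difference of 2 the window held 5 against 10 from TEX14 to APPBP2, and without the 6 h array it held 18, as did ZNF66 to ZNF254. Its members include MTSS1 (2.13), a regulator of actin, DERL1 (1.74), a factor of protein quality control in the endoplasmic reticulum, and SQLE, squalene epoxidase. Lower genes lay closer to the centromere of the same chromosome. From ASPH to CSPP1, 15 of 20 were lower and all 20 had differences below 0 (median -1.21), with 5 set apart, among them MYBL1 (-3.29), a MYB family factor, and ADHFE1 (-2.89), an alcohol dehydrogenase. T-47D in the place of ZR-75-30 had 10 of these genes higher, and 10 were called against MDA-MB-231. From ST18 to FAM110B, 11 were lower and 1 higher (median -1.20), among them RGS20 (-3.38), a G-protein regulator, and the SRC family kinase gene LYN (-2.84). Only 1 gene of this window was set apart. HCC1954 and MDA-MB-231 in the place of ZR-75-30 had 7 and 6 of its genes higher. Against MDA-MB-231 and against MDA-MB-361, 7 each were called.

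Chromosome 19 gave 3 windows in which paralogs lie side by side, so that a probe may read more than 1 gene. Of the zinc finger genes from ZNF66 to ZNF254 (chr19:20780841-24101743), 18 of 20 genes were higher with small, even differences (median 1.27) and 0 set apart, as only 1 was called against MDA-MB-231. Zinc finger genes from ZNF480 to ZNF761 (chr19:57516711-58650769) were higher in 10 cases and lower in 1 (median 1.03). Of the 20 genes, 16 were called higher than in HCC1954 but 2 than in MDA-MB-231 and 1 than in MDA-MB-361, which had 6 and 8 called higher when put in the place of ZR-75-30. From PAFAH1B3 to LYPD3 (chr19:47495994-48656934) 10 were higher (median 1.01), mostly pregnancy-specific glycoproteins of the PSG family. MDA-MB-231 in the place of ZR-75-30 had 11 of these genes higher, and 1 was called higher in ZR-75-30 than in that line (median -0.18).

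By whole chromosome, the share of higher genes was largest on chromosome 13 (52 of 242, 21.5%), followed by 15 (18.1%) and 20 (17.4%). Chromosome 22 was the reverse, with 5.95% higher and 18.4% lower (65 of 353), and chromosome 8 was above the background in both directions, with 16.3% higher and 13.9% lower. These shares stand beside 13.1% higher and 8.57% lower over all genes.

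**Figure D5:**
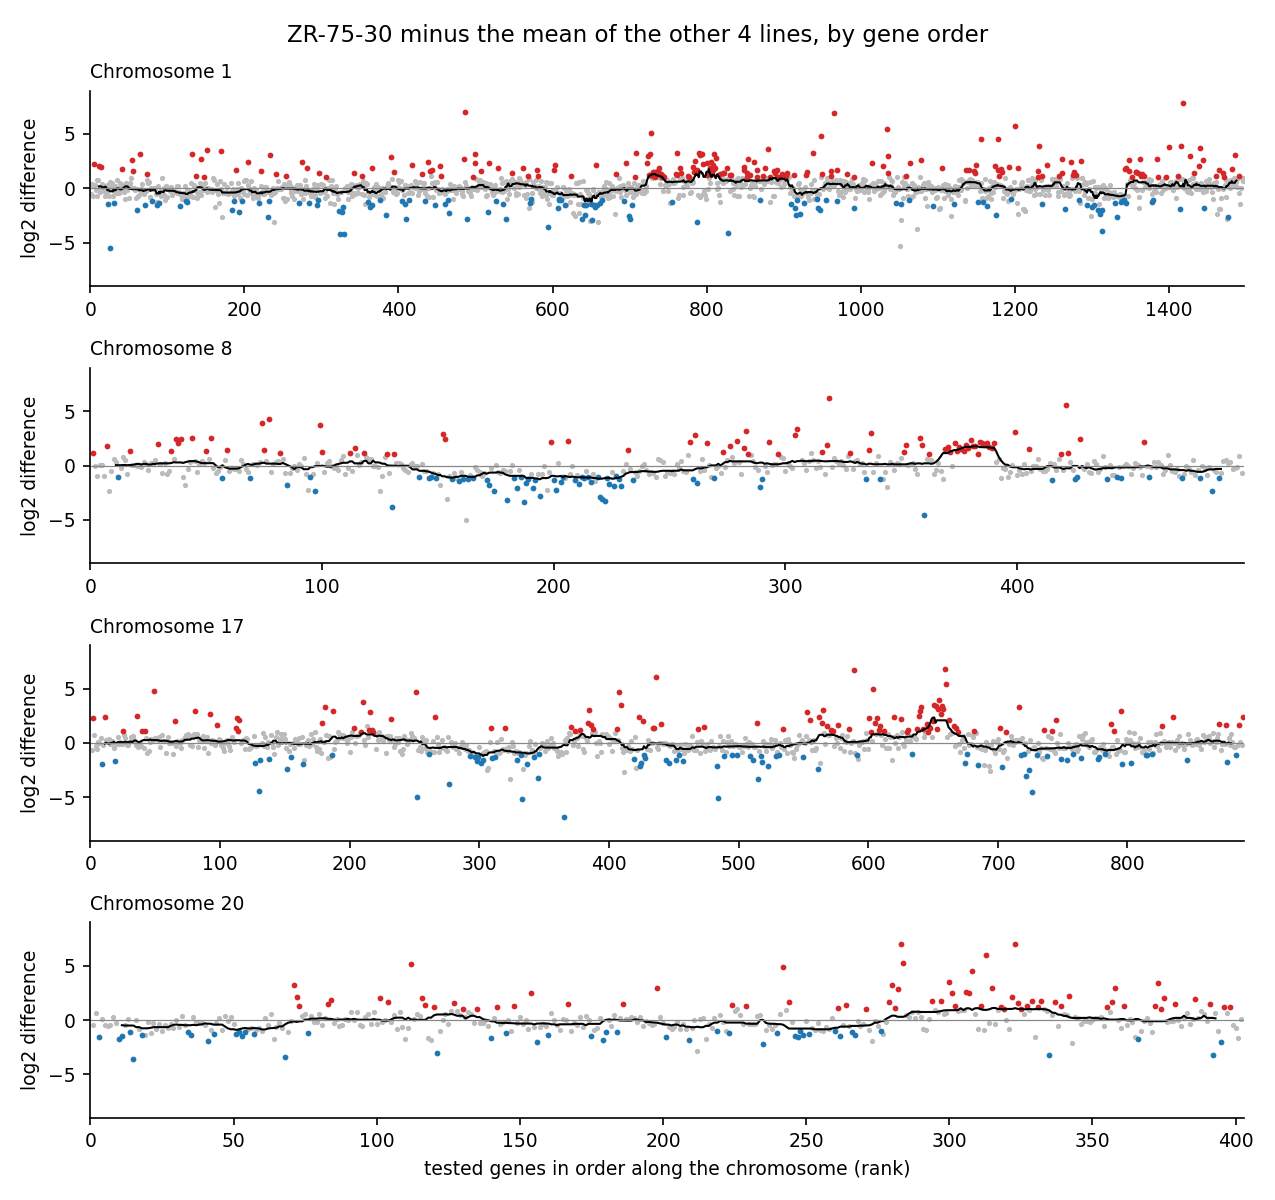
Difference of ZR-75-30 from the mean of the other 4 lines (log2) for tested genes in order along chromosomes 1, 8, 17 and 20. Grey points are genes not called, red higher and blue lower ones, and the black line is the running median of 20 genes; it rises in the blocks described on chromosomes 1, 8, 17 and 20 (17 of 20 genes higher from TEX14 to APPBP2) and falls in the first part of chromosome 8 (15 of 20 lower from ASPH to CSPP1).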

How the data were processed

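The deposited files are scanner output of 30 Agilent 44K two-colour arrays, 1 per cell line and time point. Per the file headers, the authors extracted them with Feature Extraction 9.5.1.1, whereas the study's methods name another version, and probe positions are on hg18. The deposited vehicle (Cy3) intensity values used here had been background-subtracted by the authors' scanner software and dye-normalized together with the BMP7 (Cy5) channel, per the file headers. The authors' log ratio and p-value columns and their processed value table were not used. Groups follow the cell line given in the sample titles.

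Control spots and outlier-flagged spots were left out, log2 intensity was centred on each array's median and spots of 1 probe were averaged. Of 41000 probes, 29888 passed the background criterion and were tested with limma 3.58.1 (lmFit, contrasts.fit, eBayes; R 4.3.3), 1 mean per line over all 30 arrays, with Benjamini-Hochberg adjustment over all probes tested. A gene was read from its probe with the highest mean over all arrays. Array names were updated through the RefSeq table, giving 22288 tested probes a current symbol and 14586 genes, 8884 of them by 1 probe. Exon or UTR positions were not analysed here.

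Genes were named by rule: the 15 higher and 15 lower set apart genes with the largest difference from the nearest line (2 of the higher and 1 of the lower are not reported here, nor is the 1 higher basal gene), up to 4 called members each way per list, and a short fixed set of lineage and BMP genes. The comparison, the 19 gene lists and these rules were chosen with earlier results of these data known. Other genes named in the chromosome regions and RPS6KB1, PPM1D, CCND1, FGF3, SLC39A6 and LAMA3 were chosen after their values were seen. In simulated data for the comparison with the mean of the other lines (29887 probes), 91 of 100 differences of 1.5 and 100 of 100 of 3 were recovered, with 1 false call. All lines had the same mean there except for the added differences. Values were drawn independently for each array, without shared slide or batch deviations, and every probe was set as above background. The simulation therefore does not give the error rate in the real data. The number of arrays limits the precision.

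Alternatives were other centrings (75th percentile, quantile), normexp background correction on the raw signals (offset 50) with quantile normalization, other minimum differences, all probes of a gene averaged, other background criteria, the time point as a replicate block, slide and scan batch, leaving out arrays or lines, and the BMP7 channel. Python 3.11.15 with pandas 2.3.3, numpy 2.4.6 and matplotlib 3.10.9 was used for counts and plots.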

Additional observations from a re-analysis of the deposited data

Results flagged for a closer look

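In 12 of the 119 named genes, 1 of the 6 ZR-75-30 arrays lay further from the other 5 than a gap test allows. Chance sets apart about 1 in 20 groups of independent values, but these genes share the same 6 arrays, so that share is no reference for the 12. The array was that of 30 min or 6 h in 4 cases each, of 12 h in 3 and of 24 h in 1. At 30 min, HPDL was at 5.76 (4.79 to 5.05 on the other arrays), TUBB2B at -2.58 (-4.54 to -3.85), ACVR1 at 2.60 (3.12 to 3.43) and BMPR1A at 1.80 (2.52 to 2.84). At 6 h, ZIC1 was at 2.74 (3.55 to 3.97), PGAP3 at 8.06 (7.27 to 7.54), SULF2 at 8.77 (9.21 to 9.40) and HOXA4 at 1.34 (2.22 to 2.65). At 12 h, NUP210L was at 2.27 (2.50 to 2.62), PLAAT1 at -0.91 (-4.79 to -3.90) and KRT5 at -1.43 (-4.82 to -3.92). At 24 h, ACTA1 was at 5.05 (6.54 to 7.34). The 8 values at 30 min and 6 h are on the arrays of the second scan batch, and the part of the batch in them was not tested.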

How the results depend on the processing

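The counts followed the minimum difference by construction. With no minimum, 4397 genes were higher and 3262 lower than the mean of the other lines, 798 and 466 were set apart, and 3631 and 4244 were called against HCC1954, 4169 and 4840 against MDA-MB-231, 4732 and 3395 against MDA-MB-361, and 4642 and 3773 against T-47D. With at least 2 on the log2 scale the counts were 667 and 335, 113 and 30, 952 and 1043, 1426 and 1332, 868 and 741, and 974 and 815 in the same order. In the regions, that threshold left 5 genes from ZHX2, 0 from ZNF66, 4 from AMY1C, 10 from TEX14, 8 from NRAS, 5 from GALK2, 7 from KCNG1, 2 from PAFAH1B3, 1 from ZNF480, 3 from ASPH and 5 from ST18. Windows of 40 genes held 26 called genes around TEX14, 22 around NRAS, 21 around GALK2, 21 around KCNG1, 23 around ASPH and 22 around ST18.

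Normexp with quantile normalization gave 1047 higher genes, 213 and 97 set apart, 1596 lower than HCC1954, 2030 lower than MDA-MB-231, 1605 higher than MDA-MB-361 and 1647 higher than T-47D. List medians became 1.11 (luminal), -0.56 (mesenchymal), 0.61 (adhesion), 0.23 (17q12-q21), 1.27 (17q23), 0.53 (SMADs and targets), -0.24 (antagonists), -0.65 (antigen presentation), 0.00213 (HOX) and -0.70 (cancer-testis), with a change of sign for 11q13-q14 (-0.16) and secretory genes (-0.0257). The cause was not tested.

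The second scan batch alone, with 2 arrays each of ZR-75-30 and MDA-MB-231, 1 each of HCC1954 and T-47D (the 3 h array, which stood apart) and no MDA-MB-361, gave 876 higher and 537 lower, 102 and 30 set apart, 527 and 516 against HCC1954, 1436 and 1428 against MDA-MB-231, and 466 and 353 against T-47D. Medians were 2.29 (luminal), -2.13 (basal), -2.44 (mesenchymal), 1.27 (adhesion), 2.32 (17q23), -0.25 (11q13-q14), 0.99 (BMP receptors), -1.37 (antagonists), -1.02 (interferon-stimulated), 0.55 (HOX), -0.59 (proliferation) and -2.56 (cancer-testis), and FST (-0.69) and BST2 (-0.52) changed sign. Fewer arrays and lines enter there, and a lone array is assumed to vary like those of the other lines. The first batch alone gave 233 set apart lower, 1.17 for SMADs and targets and 0.0227 for proliferation genes. Within the slide shared with MDA-MB-231, an alternative chosen after seeing the data, 1512 were higher and 1509 lower than in that line.

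Without HCC1954, 562 and 272 genes were set apart. Without MDA-MB-361 there were 617 and 503, and FST (-0.17), BST2 (-0.32) and SMAD4 (-0.00777) changed sign. Without MDA-MB-231, 247 were set apart as lower and GRB7 (-0.00674) and SMAD1 (-0.0556) changed sign, and without T-47D 308 were, with SMAD4 at -0.0379. A gene must differ from fewer lines in these counts. SMAD4, which was not called, also changed sign without the 6 h array (-0.00761, with 0.20 as the highest value when another array was left out), without 3 arrays of other lines that stood apart (-0.0329, chosen after seeing the data) and in the BMP7 channel (-0.20). In that channel the mesenchymal median was -0.95, that of SMADs and targets 0.75, and the 6 h array's r 0.972. Averaging all probes of a gene gave 1.53 for the luminal list. For these the cause was not tested.

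Leaving out 1 ZR-75-30 array at a time gave 1858 to 1924 higher and 1233 to 1291 lower genes, with 323 to 351 and 152 to 184 set apart on the probes of the full set. Time points were not used to pair the lines in the main fit. Arrays of the same time point in different lines deviated together at a mean r of 0.03 against -0.00 for different time points. Single pairs ranged widely, from -0.46 to 0.54 and from -0.52 to 0.60. A shared effect of time was not tested. With the time point as a replicate block, 1913 genes were higher and 1243 lower, and 337 and 154 set apart. Of 119 named genes, 62 kept direction and call under every alternative, 5 changed sign and 51 lost a call under at least 1. With normexp and quantile normalization 19 lost it, among them ESR1 (0.59), BMPR1B (0.68) and FST (0.05). With the probe required above background on every array of the higher group 19 lost it, and in the BMP7 channel 13. ID1 lost it with quantile normalization (0.92), scan batch as a term (0.97) and slide as a random block (0.87, consensus correlation 0.27). Probes below background, the small number of arrays and 1 line on each side limit what these data can show.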
